A study of Homo sapiens with 1 sample.

Results

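The accessible regions of the short and long arms of chromosome 3 (3p and 3q) were examined in 786-O cells, an established human line of clear cell renal cell carcinoma (ccRCC). All peaks of chromosome 3 in hg38 were taken, and the summit of each, the position of its highest coverage, placed it on an arm. A summit below 90 Mb was on the short arm and a summit above 94 Mb on the long arm. This gave 2453 peaks on the short arm and 3514 on the long arm, 5967 of the 88615 peaks on the 24 primary chromosomes, and 8 further peaks lay between the arms. The cells carried an empty vector and served as the control for overexpression of DPF3a, a form of the SWI/SNF subunit DPF3. The assay was ATAC-seq, which tags open chromatin with adapters carried by the transposase Tn5. There was 1 library without a replicate, and the library with DPF3a is not analysed here, so the arms were compared within this library and no test between samples was possible. The values describe this library, and 95% intervals cover counting error only, taking each peak or read as independent.

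Loss of the short arm of chromosome 3 is the usual first large genetic change in ccRCC. It removes a copy of VHL, PBRM1, BAP1 and SETD2, tumour suppressor genes that all lie on this arm. 786-O cells are known to lack functional VHL. VHL is part of the ubiquitin ligase that marks hypoxia-inducible factors for destruction, PBRM1 is a subunit of a SWI/SNF complex, BAP1 removes ubiquitin from histone H2A and SETD2 trimethylates lysine 36 of histone H3. The long arm carries genes such as PIK3CA and SOX2 that are gained in other carcinomas. The peak list holds no measure of copy number, and a pileup adds up the reads from every copy of a site, so the number of copies and the accessibility of each copy cannot be told apart in it.

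The sequences at summits show the kinds of site behind the comparison, the strongest sites of each arm and promoters of the ccRCC suppressors. They are hg38, plus strand, 5′ to 3′, in lower case, up to 50 bp to each side of the summit, and capitals mark a match to the AP-1 motif TGANTCA. The strongest short-arm peak, in an intron of the long noncoding RNA gene LMCD1-AS1, has its summit window at chr3:8444497-8444597.
LMCD1-AS1 intron: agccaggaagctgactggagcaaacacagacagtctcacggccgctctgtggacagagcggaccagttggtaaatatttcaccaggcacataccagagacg
The fifth strongest, in an intron of PBRM1, is at chr3:52670882-52670982 and was far stronger than the promoter of the same gene.
PBRM1 intron: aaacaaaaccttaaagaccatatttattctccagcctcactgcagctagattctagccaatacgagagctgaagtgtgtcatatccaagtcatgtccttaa
The strongest long-arm peak, intergenic near AMOTL2, is at chr3:134427530-134427630.
Site near AMOTL2: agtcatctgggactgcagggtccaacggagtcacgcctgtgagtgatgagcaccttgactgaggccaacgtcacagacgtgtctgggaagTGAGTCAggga
The next strongest, the promoter that PDCD10 and SERPINI1 share, is at chr3:167734959-167735059.
PDCD10 and SERPINI1 promoter: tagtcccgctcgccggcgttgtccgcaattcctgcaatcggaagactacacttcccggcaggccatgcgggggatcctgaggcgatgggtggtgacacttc
The promoter windows of PBRM1, chr3:52685918-52686000, and SETD2, chr3:47164132-47164232, were kept to what lies outside annotated untranslated regions, which shortened that of PBRM1.
PBRM1 promoter: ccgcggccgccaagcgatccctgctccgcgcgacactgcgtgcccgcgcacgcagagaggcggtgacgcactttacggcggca
SETD2 promoter: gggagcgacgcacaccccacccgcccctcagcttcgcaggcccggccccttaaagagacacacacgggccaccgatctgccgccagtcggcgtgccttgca
G or C made up 73.5% of the PBRM1 and 70.3% of the SETD2 promoter window, 54.5% of the LMCD1-AS1 window and 39.6% of the window in the PBRM1 intron, so of these short-arm windows the promoters, which had the lower folds, were the richer in G and C.

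Peak strength is given as the fold enrichment of the deposited list, the pileup of reads at the summit plus 1 over the genome-wide background pileup plus 1. The background pileup was 0.941, so a step of 1 in the pileup was a step of 0.515 in fold. The pileups ranged from 9 to 300, and the lowest fold was 5.15. The median pileup was 19 on the short arm and 20 on the long arm, and pileups under 15 made up 36.3% of short-arm and 33.8% of long-arm peaks beside 35.7% of all peaks, so single weak peaks carry wide intervals on both arms alike. As a check of the labelled cell type, promoter peaks were found at PAX8 (fold 31.9), PAX2 (22.7), KRT8 (43.3) and KRT18 (8.24), genes of kidney or epithelial cells. None was found at the leukocyte genes PTPRC and CD3E or at the hepatocyte gene ALB.

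The long arm held more accessible sites per length than the short arm. There were 27.3 peaks per Mb of sequenced bases on the short arm (95% interval 26.2 to 28.4) and 33.7 on the long arm (32.6 to 34.8), beside 31.4 on the other 21 autosomes. The ratio of the long to the short arm was 1.24 (1.17 to 1.30). Peaks covered 1.84% of the short arm and 2.37% of the long arm, with nearly the same median width of 514 and 521 bp. The short arm was below the other autosomes as a whole and the long arm above them. Gene density did not differ in the same direction, as the short arm had 5.67 protein-coding genes per Mb and the long arm 5.46, a ratio of 0.963 (0.853 to 1.09).

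The long arm had more peaks per Mb both inside and outside promoters. A promoter reached from 1 kb before a transcription start site (TSS) to 100 bp after it, for all annotated transcripts. Promoter peaks numbered 460 on the short arm and 604 on the long arm, 5.11 and 5.79 per Mb, a ratio of 1.13 (1.002 to 1.28). Peaks elsewhere inside genes numbered 1459 and 2090, a ratio per Mb of 1.24 (1.16 to 1.32). Intergenic peaks numbered 534 and 820, and their ratio per Mb was 1.33 (1.19 to 1.48). The intervals of these 3 ratios overlap one another, so no class was shown to differ from the others in its excess.

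As shares of each arm's peaks, the classes were close. Promoters took 18.8% of short-arm peaks (17.2 to 20.4) and 17.2% of long-arm peaks (16.0 to 18.5), from 3.70% and 3.99% of the bases. Gene bodies took 59.5% on both arms, from 65.4% and 61.8% of the bases, and 53.7% from 57.7% of the bases on the other autosomes. Intergenic sequence took 21.8% and 23.3%, from 30.9% and 34.2% of the bases. On both arms promoters were therefore the class with the most peaks for its length. The gene-body share was above that of the other autosomes, but so was the share of bases in gene bodies, and per Mb gene-body peaks numbered 16.2 on the short arm, 20.1 on the long arm and 16.9 on the other autosomes. Summits more than 100 kb from any protein-coding TSS made up 32.8% of short-arm peaks (30.9 to 34.7), 28.8% of long-arm peaks (27.3 to 30.4) and 27.4% of those on the other autosomes.

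In bins of 5 Mb the peak density varied far more along each arm than between them. The 18 short-arm bins ranged from 7.0 to 49.6 peaks per Mb, with a mean of 27.3 ± 12.5 (SD over bins) and a median of 27.4. The 21 long-arm bins ranged from 16.8 to 50.8, with a mean of 34.0 ± 9.86 and a median of 31.8, and a further 1 Mb from 94 to 95 Mb had 16.0. The ranges of the arms reached nearly the same upper end, and the long arm lacked bins as sparse as the 3 sparsest of the short arm. Of the short-arm bins 7 of 18 and of the long-arm bins 12 of 21 were above 30.6, the median of the 515 bins of the other autosomes.

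**Figure D1:**
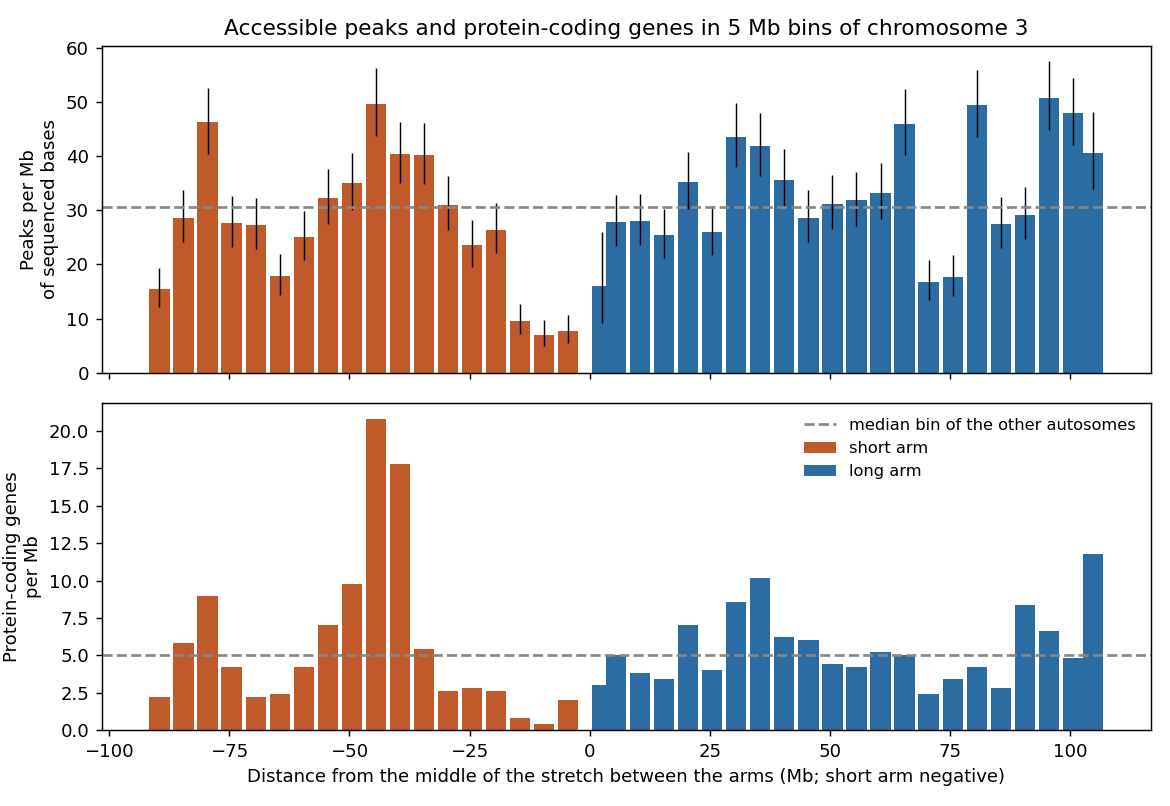
Peaks per Mb (upper panel, bars with exact Poisson 95% intervals) and protein-coding genes per Mb (lower panel) in 5 Mb bins of the short arm (orange) and long arm (blue), by distance in Mb from the middle of the stretch between the arms; the narrow first long-arm bar is the stretch of 1 Mb from 94 Mb and dashed lines are the median bins of the other autosomes. Density falls to between 7.0 and 9.6 peaks per Mb in the 3 short-arm bins nearest the centre, whereas no full long-arm bin is below 16.8.

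The densest short-arm bin, from 45 to 50 Mb, had 49.6 peaks per Mb (43.6 to 56.2) and was also the richest in genes, with 104 protein-coding genes, of which 68 had a promoter peak. This stretch holds SETD2 and most of the chemokine receptor genes of 3p. The densest bins of the long arm were poorer in genes. The bin from 185 to 190 Mb had 50.8 peaks per Mb (44.7 to 57.4) with 33 protein-coding genes, and the bin from 170 to 175 Mb had 49.4 (43.4 to 56.0) with 21. In the latter 217 of 247 peaks lay outside promoters. The bin from 190 to 195 Mb had 48.0 peaks per Mb with 24 genes. These 4 densities had overlapping intervals, so their order is not settled by this library.

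The sparsest bins of chromosome 3 were the last of the short arm, with 7.0 peaks per Mb from 80 to 85 Mb, 7.8 from 85 to 90 Mb and 9.6 from 75 to 80 Mb. They held 2, 10 and 4 protein-coding genes. The lowest full bins of the long arm, from 160 to 165 Mb and from 165 to 170 Mb, had 16.8 and 17.6 peaks per Mb with 12 and 17 genes. Without the 10 Mb next to the 90 and 94 Mb limits the ratio of the arms was 1.15 (1.09 to 1.22), so the difference in density was smaller, but still present, when these stretches were left out.

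Density and gene content went together more closely along the short arm. Across bins, protein-coding genes per Mb and peaks per Mb had Pearson's r of 0.785 and Spearman's rho of 0.909 on the short arm (18 bins), 0.479 and 0.637 on the long arm (21 bins), and 0.576 and 0.680 on the other autosomes (515 bins). For G and C content the values were 0.935 and 0.924 on the short arm and 0.533 and 0.687 on the long arm. Genes per Mb counts annotated genes with or without a peak, whereas peaks per Mb includes the peaks at their promoters. For peaks outside promoters alone, r and rho with gene density were 0.605 and 0.788 on the short arm. They were 0.286 and 0.536 on the long arm, and 0.357 and 0.535 on the other autosomes. Bins of 1 library share its depth and neighbouring bins share sequence composition, so these are descriptions.

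Among bins of like gene count, the arms differed most at intermediate counts. With 20 to 39 protein-coding genes the median density was 28.6 peaks per Mb over 5 short-arm bins (25 to 40.2), 35.2 over 13 long-arm bins (26.0 to 50.8) and 31.6 over 185 bins of the other autosomes. With 10 to 19 genes it was 23.6 over 7 and 25.4 over 5 bins. With 40 or more it was 43.3 over 4 and 41.8 over 3. The ranges of the 2 arms overlapped in each of these classes.

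The longest stretch without a summit on the short arm ran 1417 kb, from 73868872 to 75285791, and held the TSS of CNTN3, which encodes a neuronal contactin. On the long arm the longest ran 939 kb, from 145125564 to 146064307, and held no protein-coding TSS. There were 16 gaps over 500 kb on the short arm and 9 on the long arm, whereas the median distance between neighbouring summits was close, 13.1 and 11.8 kb.

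The shares of genes with an open promoter were close on the arms. On the short arm 340 of 510 protein-coding genes had a summit in a promoter, 66.7% (62.4 to 70.7), and on the long arm 383 of 569, 67.3% (63.3 to 71.2). Over all primary chromosomes the share was 61.4%, and 2 of the other 21 autosomes were above the short arm and 1 above the long arm. The intervals of both arms lay above the genome-wide share. Long noncoding RNA genes gave the same picture, with 111 of 387 on the short arm, 28.7% (24.2 to 33.5), and 163 of 587 on the long arm, 27.8% (24.2 to 31.6), beside 21.9% over all primary chromosomes.

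The strength of those promoters differed more than their number. Each protein-coding gene was given the fold of its strongest promoter peak, and genes with no such peak were kept below the lowest fold. The median over all genes was 17.0 on the short arm (13.9 to 20.1) and 22.2 on the long arm (18.03 to 25.2), with intervals that overlapped, beside 13.4 on the other autosomes. The 75th percentile was 33.0 (30.9 to 35.6) and 41.7 (37.6 to 45.3), and the 90th percentile 48.4 (41.7 to 52.0) and 58.2 (55.7 to 62.9). At these upper percentiles the intervals of the arms did not overlap, and the short arm was close to the 30.4 and 46.9 of the other autosomes while the long arm was above them.

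Over all peaks the same held, in that the arms were alike among weak and middling peaks and differed among strong ones. The 25th percentile of fold was 6.70 on both arms. The median was 10.3 on the short arm (9.79 to 10.8) and 10.8 on the long arm (10.8 to 11.3), a ratio of 1.05 (1 to 1.16). The 90th percentile was 34.0 (32.5 to 35.0) and 40.0 (37.6 to 41.7), a ratio of 1.18 (1.07 to 1.29). For promoter peaks the median was 19.3 (17.0 to 21.6) and 21.9 (19.6 to 24.2), a ratio of 1.13 with an interval of 0.905 to 1.42 that included 1. The 90th percentile ratio was 1.18 (1.01 to 1.44) for promoter peaks and 1.16 (1.02 to 1.28) for the others, so the upper end differed in both classes by nearly the same factor.

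**Figure D2:**
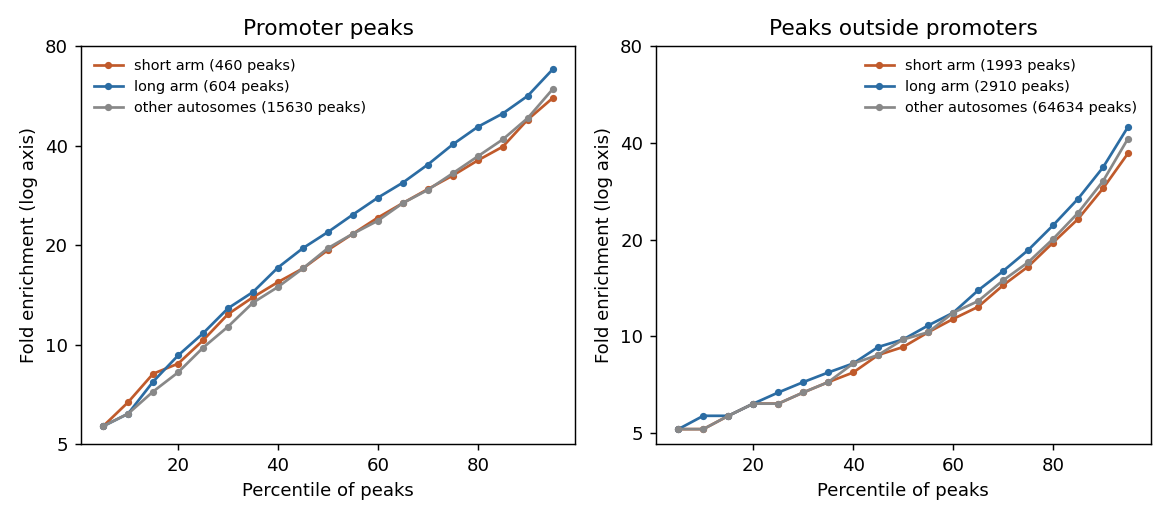
Percentiles of fold enrichment (log axis) of promoter peaks (left) and of peaks outside promoters (right) on the short arm (orange), the long arm (blue) and the other autosomes (grey). The curves of the arms lie together at the low percentiles and part towards the high ones, where the short arm stays near the other autosomes and the long arm lies above them, with 90th percentiles of 47.9 and 56.5 for promoter peaks and 28.9 and 33.5 for the others.

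A peak was called strong when its fold exceeded 35.6, the 90th percentile over the primary chromosomes, which 9.76% of all peaks did. On the short arm 210 peaks were strong, 8.56% (7.48 to 9.74), and on the long arm 426, 12.1% (11.1 to 13.2). The short arm was thus slightly below and the long arm above the share over the genome, and their intervals did not overlap. The share on the other autosomes ranged from 3.77% on chromosome 14 to 14.9% on chromosome 7, with 10 above the short arm and 2 above the long arm.

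**Figure D3:**
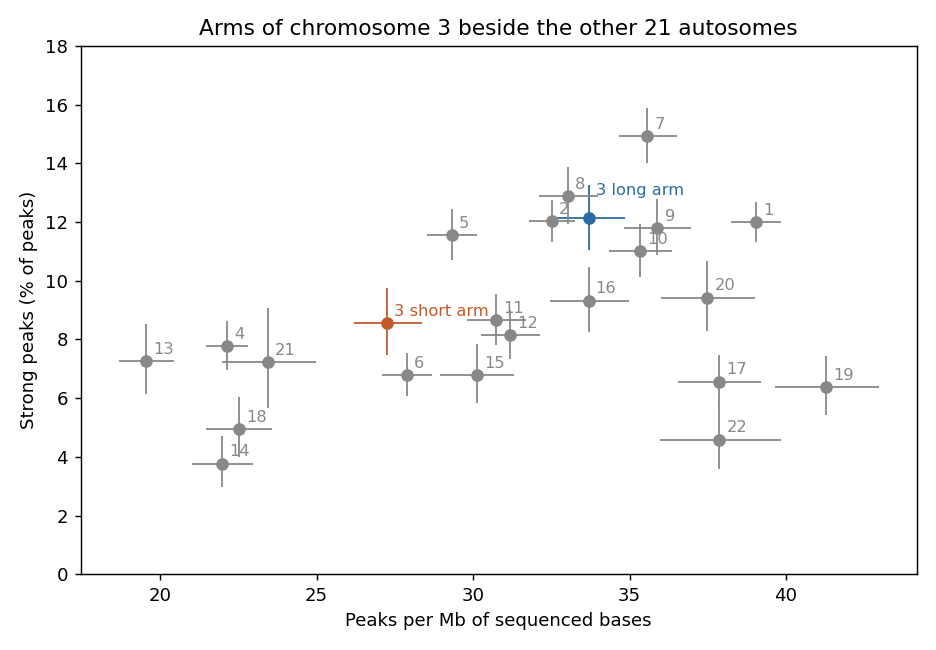
Share of strong peaks (%) against peaks per Mb for the short arm (orange), the long arm (blue) and each other autosome (grey, by its number), with 95% intervals from counting error. Both arms lie inside the spread of the autosomes on both axes, the short arm at 27.3 peaks per Mb and 8.56% and the long arm at 33.7 and 12.1%.

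The difference between the arms was therefore no larger than differences between whole autosomes. The list gives no copy number for those autosomes either, so they are not a standard of equal copies. Peak density ranged from 19.5 per Mb on chromosome 13 to 41.3 on chromosome 19, with 16 of 21 autosomes above the short arm and 8 above the long arm. The 90th percentile of fold ranged from 26.3 on chromosome 14 to 45.3 on chromosome 7, with 9 above the short arm and 2 above the long arm. The short arm was in the middle of the autosomes in strength and in the lower part in density, and the long arm was near the top in strength.

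Along the arms, short-arm bins had 90th percentiles from 21.6 to 49.1 with a median of 32.8, and long-arm bins from 29.5 to 47.6 with a median of 39.2. The median over bins of the other autosomes was 34.0. It was exceeded by 8 of 18 short-arm bins and 19 of 21 long-arm bins. The first bin of the short arm, from 0 to 5 Mb, combined a low density of 15.4 peaks per Mb with the highest 90th percentile of the chromosome, 49.1 over 77 peaks, and 16.9% strong peaks. This bin holds the third strongest peak of the short arm, inside ITPR1. From 0 to 45 Mb 9.96% of the short-arm peaks were strong and from 45 to 90 Mb 7.05%. On the long arm the shares were 11.3% from 95 to 145 Mb and 12.9% beyond 145 Mb.

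**Figure D4:**
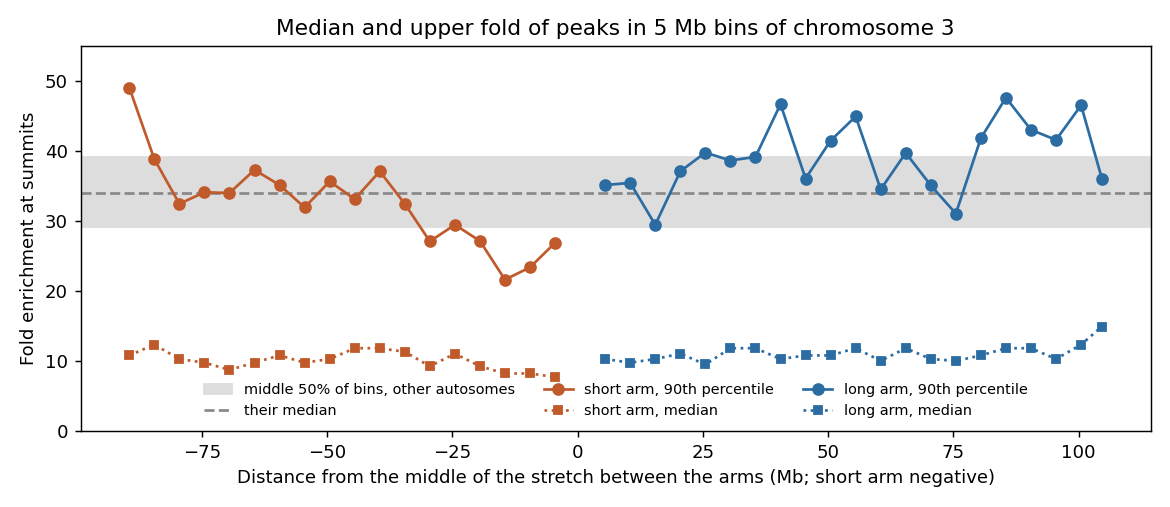
The 90th percentile (circles) and median (squares) of fold enrichment in 5 Mb bins with at least 20 peaks, by distance in Mb from the middle of the stretch between the arms, with the median (dashed) and middle 50% (grey) of the 90th percentiles over bins of the other autosomes. On the short arm the 90th percentile is highest in the outermost bin at 49.1 and lowest near the centre at 21.6, and 19 of 21 long-arm bins lie above the dashed line.

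Sites of one kind were then compared between the arms, since the arms differ in sequence. The median G and C content of protein-coding promoters was 56.1% on the short arm and 51.8% on the long arm. Among genes with promoters of 50 to 60% G and C, 156 of 232 on the short arm were open, 67.2% (60.8 to 73.2), and 196 of 247 on the long arm, 79.4% (73.8 to 84.2), beside 68.9% on the other autosomes. The median over these genes was a fold of 19.1 on the short arm (13.9 to 22.2) and 30.9 on the long arm (26.8 to 34.0), beside 18.03. The intervals of the arms did not overlap in this class, and the short arm was close to the other autosomes. Between 60 and 70% the medians were 22.2 (16.0 to 27.3) and 28.3 (17.5 to 34.0). Below 50% the order was the opposite, with medians of 8.24 over 125 genes and 5.67 over 240, and intervals that reached below the lowest fold on both arms. The 75th percentiles in this class kept the long arm higher, at 24.7 and 29.5. Above 70% there were few genes, and 15 of 21 on the short arm (47.8 to 88.7%) and 11 of 12 on the long arm (61.5 to 99.8%) were open.

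Outside promoters the difference was small at the median. Peaks with the core motif of CTCF, the insulator protein that anchors chromatin loops in most cell types, had a median fold of 7.99 on the short arm (7.21 to 9.28; 74 peaks) and 8.76 on the long arm (8.24 to 9.79; 107 peaks), beside 8.76 on the other autosomes. Peaks with the motif of AP-1, the Fos and Jun factors found at many enhancers, had medians of 10.8 (10.3 to 11.9; 478 peaks) and 11.9 (11.3 to 13.4; 685 peaks), beside 11.3. Peaks with neither had medians of 8.76 and 9.79 and 90th percentiles of 27.3 and 32.5, beside 29.4. Promoter peaks with the ETS motif CCGGAAGT were few, 10 and 11, with medians of 24.7 (12.4 to 50.0) and 40.7 (27.8 to 60.8). In each of these 4 classes the long arm had the higher value, but in the CTCF, AP-1 and ETS classes the intervals overlapped, and in the class with neither motif they met at 9.28. Among intergenic peaks as a whole the medians had the opposite order, 9.79 (8.76 to 10.8) on the short arm and 9.28 (8.76 to 10.3) on the long arm, with intervals that overlapped.

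The motifs themselves occurred at close shares on the arms. Both strands were read over 50 bp to either side of a summit. AP-1 letters were found in 23.98% of short-arm and 23.5% of long-arm peaks outside promoters, beside 22.9% of all such peaks, and in 7.61% and 9.11% of promoter peaks, beside 7.68%. The CTCF core was found in 3.71% and 3.68% of peaks outside promoters, beside 3.93%. The ETS motif was found in 2.17% and 1.82% of promoter peaks, beside 2.003%. A match is a run of letters and does not show that the factor was bound.

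All 4 ccRCC suppressor genes of the short arm had a promoter peak, where 61.4% of all protein-coding genes did. VHL had a fold of 24.2 (17.9 to 32.1) at chr3:10141470-10142416, with its summit 133 bp downstream of the canonical TSS and no other summit in the gene. BAP1 had the same fold of 24.2 at chr3:52409834-52411097, but its summit lay 657 bp upstream of the TSS in a promoter shared with PHF7. SETD2 had 23.7 (17.4 to 31.5) at chr3:47163537-47164824, shared with the antisense gene KIF9-AS1, and PBRM1 had 12.4 (8.03 to 18.3) at chr3:52685351-52686597, shared with GNL3. Shared promoters cannot be assigned to either gene. VHL, BAP1 and SETD2 could not be told apart by their intervals, and PBRM1 was the lowest, with an interval that overlapped those of the other 3 slightly. Inside PBRM1, however, lay the intronic peak whose sequence is printed above, with a fold of 78.3 (66.4 to 91.8), 14981 bp from the nearest TSS of the gene.

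Of 18 other short-arm genes studied as tumour suppressors, 16 had a promoter peak, 88.9% (65.3 to 98.6), beside 61.4% of all protein-coding genes and 66.7% of those on the short arm, which lies within this interval. The folds ran from 5.67 to 74.2, with a median of 20.4 over these 16. With the genes that had none placed below the lowest fold, the median over all 18 was 17.0. The strongest were PLCD1, a phospholipase C (74.2, at an internal TSS), and TGFBR2, the type II receptor of TGF-β (70.1). FHIT, which spans a common fragile site, had 36.6 at its TSS. Its 15 summits were spread over a long gene, from 59747277 to 61251459. RASSF1, a gene often silenced by promoter methylation in kidney cancer, had 40.2 (31.8 to 50.1). However, this summit lay at an internal TSS 3413 bp downstream of the canonical one, in a promoter shared with RASSF1-AS1. The semaphorin genes SEMA3B and SEMA3F were lower, at 13.9 and 11.3, and so was RARB, a retinoic acid receptor, at 10.3, at a TSS upstream of the canonical one. NPRL2, an inhibitor of mTORC1 signalling whose promoter is shared with CYB561D2, had 39.7. The folds of PTPRG, ROBO1, HYAL2, FOXP1, LIMD1 and TUSC2 lay between 25.8 and 16.0. Among these, the summits of ROBO1 and FOXP1 lay 748429 and 452976 bp downstream of the canonical TSS. DLEC1 (6.70) and CTDSPL (5.67) were near the lowest fold of the list and had their peaks far inside the gene, 77514 and 101919 bp downstream of the canonical TSS. ZMYND10 and HYAL1 had none, with the nearest summits 1813 and 4165 bp from a TSS.

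Of 17 long-arm genes often gained in cancers, 16 had a promoter peak, 94.1% (71.3 to 99.9), beside 61.4% of all protein-coding genes and 67.3% of those on the long arm. The list includes the noncoding RNA gene TERC, which had a peak, so it is not of protein-coding genes alone. The folds ran from 9.28 to 91.2 with a median of 28.3, or 27.8 over all 17. The strongest were ACTL6A, which encodes the SWI/SNF subunit BAF53A, at 91.2 (78.3 to 105.6), and ECT2, a guanine nucleotide exchange factor of cytokinesis, at 89.7 (76.9 to 103.98). PIK3CA, the catalytic subunit of a phosphoinositide kinase, had 53.1 in a promoter shared with PIK3CA-DT. SKIL, a repressor of SMAD signalling, and the kinase gene PRKCI had 49.0 and 48.4. SOX2, a transcription factor of stem and squamous cells, had 23.7 in a promoter shared with a noncoding gene, and TERC, the RNA of telomerase, 13.9. MAP3K13, TBL1XR1, EIF4G1, BCL6, FNDC3B, DCUN1D1, TFRC and MECOM lay between 37.6 and 20.1, and PLD1 was the lowest at 9.28. Among these, the summit of MAP3K13 lay far upstream of its canonical TSS, in a promoter shared with EHHADH. That of MECOM lay 517245 bp downstream of its canonical TSS, and the promoter of BCL6 was shared with other annotated genes. TP63, the master factor of squamous epithelium, had no promoter peak, and its nearest summit lay 20766 bp from a TSS, although 8 summits inside the gene reached a fold of 53.6.

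**Figure D5:**
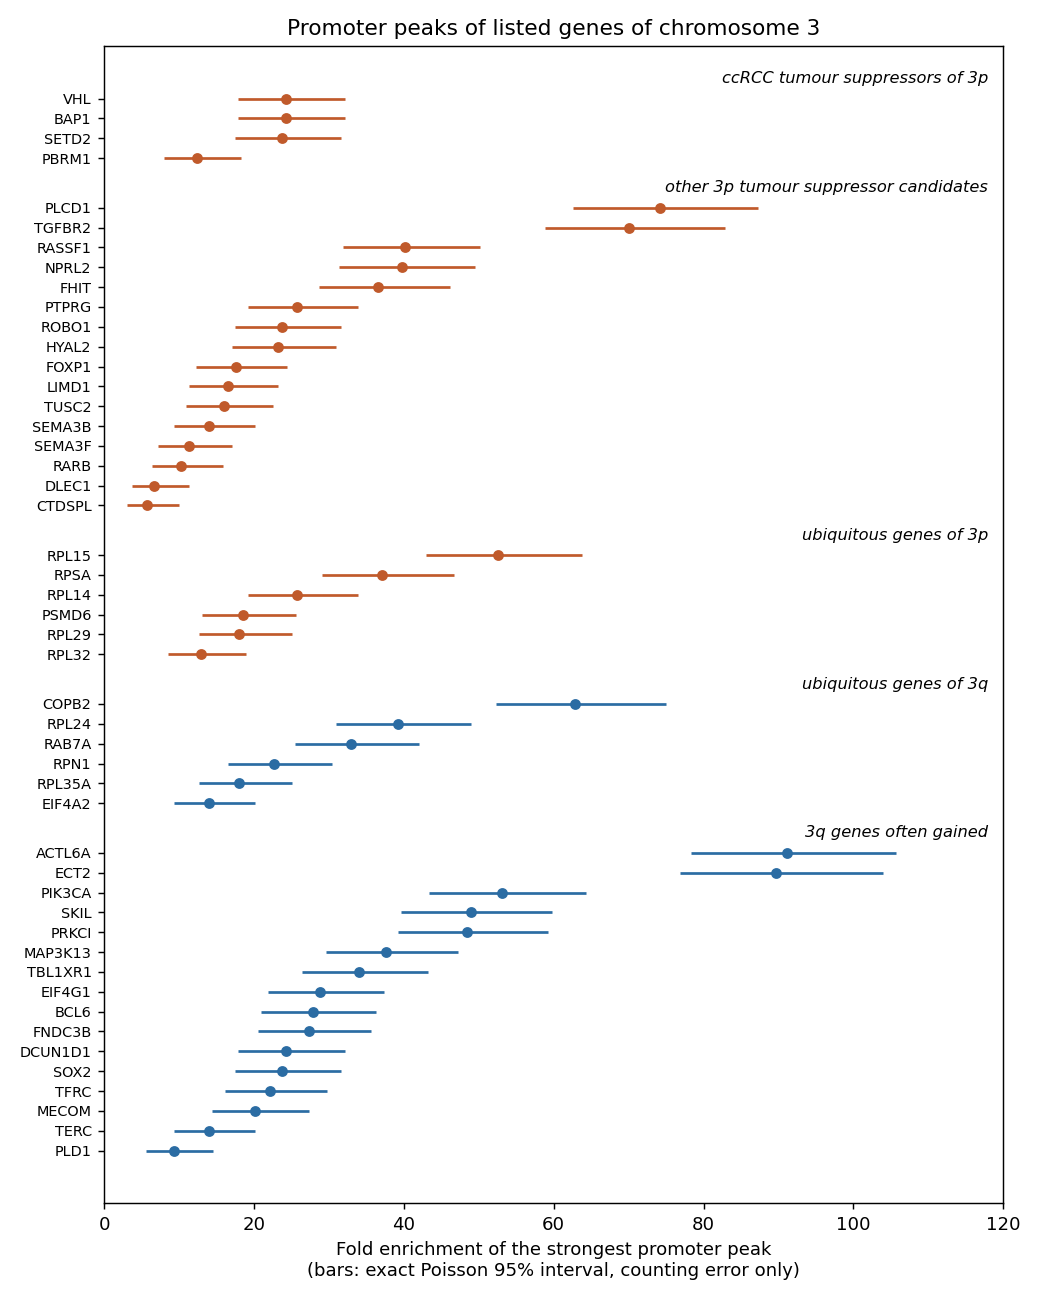
Fold enrichment of the strongest promoter peak of each gene with such a peak in 5 of the lists, on the short arm (orange) and the long arm (blue), with exact Poisson 95% intervals of the pileup. The ccRCC suppressors lie between 12.4 and 24.2, and the ubiquitous genes span 12.9 to 52.6 on the short arm and 13.9 to 62.9 on the long arm.

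Genes that all cells use were also listed for each arm, but the lists were not matched in function. The short-arm list was made up of ribosomal protein genes and PSMD6. On the long-arm list only RPL24 and RPL35A were ribosomal protein genes, so the medians of the lists do not compare like with like. All 6 on the short arm had promoter peaks, with folds from 12.9 (RPL32) to 52.6 (RPL15) and a median of 22.2, and all 6 on the long arm, from 13.9 (EIF4A2) to 62.9 (COPB2) with a median of 27.8. The RPL15 promoter was shared with NKIRAS1, and those of RPL24, RPL35A, COPB2 and EIF4A2 were also shared with other annotated genes. The ribosomal protein genes RPSA (37.1), RPL14 (25.8) and RPL29 (18.03) of the short arm lay in the same range as RPL24 (39.2) and RPL35A (18.03) of the long arm. The other members, PSMD6 (18.6) on the short arm and RAB7A (33.0) and RPN1 (22.7) on the long arm, also lay within the range that both lists shared.

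Genes of leukocytes on the short arm mostly lacked promoter peaks. Of 10 leukocyte chemokine receptor genes 1 had a promoter peak, 10% (0.253 to 44.5), against 61.4% of all protein-coding genes. It was CCRL2, an atypical receptor that is also made outside leukocytes, with a fold of 15.5. The others, CCR1, CCR2, CCR3, CCR4, CCR8, CCR9, CXCR6, XCR1 and CX3CR1, had none, although XCR1 had a summit of fold 17.0 inside the gene. Of 4 kidney genes on the short arm, PTH1R, the parathyroid hormone receptor, had a peak (14.9, at an internal TSS), and the transporter genes SLC6A20, SLC22A13 and SLC22A14 had none. On the long arm the tight junction genes CLDN16 and CLDN1 shared a peak of 26.3, 42 bp from the canonical TSS of CLDN1 and far upstream of that of CLDN16. CASR, the calcium-sensing receptor, had none within 4657 bp, and AGTR1, the angiotensin receptor, had none in a promoter but a summit 295 bp from a TSS.

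The 3 strongest peaks of the short arm lay on its outer part. The first, at chr3:8442924-8445096 in LMCD1-AS1, had a fold of 83.5 (71.2 to 97.3) and was 357th of all peaks. The next, at chr3:5021390-5024128, had 81.9 and lay 44020 bp from the TSS of BHLHE40, a transcription factor induced by hypoxia. The third, at chr3:4830710-4831864, had 80.9 and was the promoter of a long noncoding RNA inside ITPR1, the gene of an inositol trisphosphate receptor. Their intervals overlapped, so these 3 have no settled order.

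The strongest peaks of the long arm were higher. The first, at chr3:134426369-134428238, had 109.8 (95.5 to 125.5), was 53rd of all peaks and lay 53133 bp from the TSS of AMOTL2, a regulator of the Hippo pathway. It is the site with AP-1 letters shown above. The shared promoter of PDCD10, whose loss causes cerebral cavernous malformations, and SERPINI1, which encodes neuroserpin, at chr3:167734055-167735986, had 106.7 (92.7 to 122.2). The third, at chr3:177299562-177301613 in an intron of LINC00501, had 103.6 (89.8 to 118.9). All 3 were above the strongest short-arm peak, although each of their intervals overlapped its interval.

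At the limit of the short arm, its last summit was at 89353706 in an intron of EPHA3 with a fold of 5.67, and the first beyond 90 Mb was intergenic at 90091621 with 5.15. Both were near the lowest fold of the list.

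Sequence with another copy in the alternative sequences of hg38 held no peaks. The authors' filter against poorly mapped reads can remove reads that fit more than 1 copy. Whether this happened here was not tested, so the lack of peaks is not a reading of closed chromatin. This sequence came to 3 segments of 276 kb in all on the short arm and 9 segments of 1454 kb on the long arm. It held 1 and 4 protein-coding genes, none of them with a promoter peak. Without these genes the shares of open genes stayed within the intervals given above.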

How the data were processed

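Open chromatin was profiled by ATAC-seq in 1 library of 786-O cells with an empty vector. Per the study's methods and the submitters' processing notes, the authors used fastp for trimming, Bowtie2 2.3.4.3 for alignment to hg38, filters against poorly mapped and mitochondrial reads, sambamba against duplicates, and MACS2 2.2.6 for peaks, on this library alone and with the local background switched off. A Tn5 shift is not stated, so summits may be some bases off. The authors deposited for each peak a fold enrichment (a ratio to 1 genome-wide background), −log10 p-values and −log10 q-values, and a score, which was 10 times the −log10 q-value for 100% of peaks. The lowest score was 52 and the peak numbers reached 111260 for 88676 peaks, so weaker peaks had been dropped after numbering. Names of peaks are tagged wild type although the label says empty vector, and the label was used.

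Summit pileups were recovered from the folds and were whole to within 1.83e-05. The number of reads is unknown, and PCR reads without molecular identifiers are not independent molecules. Density was taken per Mb of sequenced bases with exact Poisson intervals, shares have Clopper-Pearson intervals, quantiles have order-statistic intervals, and the ratio of 2 densities came from the exact binomial split, all at 95%. The interval of a fold ratio was formed otherwise. Its limits divide the lower limit of the long arm by the upper limit of the short arm, and the upper by the lower. Such an interval tends to be wider than a 95% interval of the ratio. Genes and transcripts were those of GENCODE release 44. A summit outside promoters but within a gene on either strand was gene body. Copies in alternative sequences were found with minimap2 2.31, keeping alignments from 10 kb that diverged by up to 5%. Scripts ran in Python 3.11.15 (scipy 1.17.1, pandas 2.3.3, numpy 2.4.6, matplotlib 3.10.9). Their functions for Poisson, quantile and density-ratio intervals were tested with simulated counts and values. Intervals of shares and of fold ratios were not tested directly. For each gene of 8 lists the strongest promoter peak or its absence was reported, with the 3 strongest peaks, the 3 densest and sparsest bins, the longest gap of each arm and the summits next to the limit of the short arm. Some listed genes and the summits next to the other limit are not reported here and enter no list count. The fifth short-arm peak and the fourth densest bin were added after their values were seen. The regions and gene lists were chosen with earlier results of these data known. Alternatives were higher score minimums, other promoter definitions, other limits of the arms and medians over bins. Peaks outside the 24 primary chromosomes were left out.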

Additional observations from a re-analysis of the deposited data

Results flagged for a closer look

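Between the arms, from 90 to 94 Mb, the list held 8 peaks. They were flagged because 8 is above the limit of 3 counts that a count of 0 would allow. The stretch was set by the limits of the arms, however, and nothing predicted a count of 0 in it. Only 2 of the 8 summits, at 90091621 and 93470587, lay before its last part, and the others lay beyond 93470587. The density of 2.06 per Mb (0.891 to 4.07) over 3.87 Mb of sequenced bases therefore averages an uneven spread. The 8 peaks had folds from 5.15 upwards with a median of 11.9. Among them was a promoter peak of PROS1, which encodes the anticoagulant protein S, with a fold of 26.8. Another, at 93470587, had a fold of 46.4 with 19.8% G and C within 50 bp of its summit. No filter against regions of artefact signal was applied here, and whether this peak reflects open chromatin was not tested.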

How the results depend on the processing

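Of 50 alternatives, 27 left the value within its interval and 23 moved it. The count of turned directions was 0, as all ratios of the long to the short arm stayed above 1. A share of a single arm has no direction to turn. With scores over 100, promoter shares of the short and long arms were 24.3% and 21.2%, and strong shares 12.7% and 17.4%. With scores over 200, promoter shares were 30.0% and 26.5%, strong shares 19.1% and 25.6%, open protein-coding genes 59.2% and 60.8%, and the density ratio 1.31. Without the 10 Mb next to the limits the density ratio was 1.15. Promoters of 2.5 kb to both sides of the TSS gave shares of 30.9% and 30.3% and open genes of 75.7% and 75.6%. The Ensembl canonical transcript alone gave 13.5% and 11.8%, and open genes of 56.7% and 56.6%. Overlap of the peak interval in place of the summit gave 21.7% and 20.1%, and open genes of 71.4% and 70.3%. With the wider promoters, the canonical transcript and overlap, the short arm had the slightly higher share of open genes. The order as reported was the reverse, with 66.7% and 67.3%. The fold ratios stayed within their intervals, from 1.17 to 1.21 for the 90th percentile, 1.05 to 1.08 for the median and 1.07 to 1.19 for the promoter median. A higher score minimum raises strong shares, and wider or fewer promoters move promoter and gene shares, by construction. The cause of the moves in density, and in promoter shares with the score, was not tested. No paired analysis was possible because the list came from a single library. Weak peaks limit the detail, since a pileup of 9 has an interval of 2.64 to 9.32 in fold.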

Other observations

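Some genes held long runs of accessible sites, chosen here after their values were seen. On the short arm, FOXP1, a forkhead transcription factor gene, held 52 summits (82.6 per Mb), PRICKLE2, a planar cell polarity gene, 40 (113 per Mb) and PTPRG, a receptor tyrosine phosphatase gene, 28 (38.0 per Mb). FOXP1 had a promoter fold of 17.5 at an internal TSS, 452976 bp downstream of the canonical one. On the long arm, LPP, which encodes a focal adhesion protein, held 50 summits (67.8 per Mb). TNIK, a kinase gene of the Wnt pathway, held 41 (102 per Mb). Long genes hold more summits by their length alone, and no test was made over these genes.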
